A study of Mus musculus with 10 samples.

Results

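Embryoid bodies (EBs) of day 14, aggregates of differentiating mouse embryonic stem (ES) cells, were compared between knockdown of Smyd5 (shSmyd5) and a control hairpin against luciferase (shLuc). Both EB populations came from R1 ES cells that had received a lentiviral short hairpin RNA and puromycin selection, and were grown without LIF in low attachment dishes. Polyadenylated RNA was sequenced from 1 library of each, 2 of the 10 libraries of the study, which also covered ES cells and EBs of 24 h, day 6 and day 10. The genes described were the 10476 of 22878 with an RPKM (reads scaled to the length of the transcript and the depth of the library) of at least 3 in 1 or both day 14 libraries, each represented by the transcript that collected the most reads in the study. The hairpin used for sequencing, of several tested in ES cells, is not named in the sources used here, and an EB is a mixture of cell types, so fewer cells of a type and less RNA per cell cannot be told apart.

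SMYD5 is a SET and MYND domain protein that places 3 methyl groups on lysine 20 of histone H4 (H4K20me3), a mark of silenced chromatin and of repeat elements. ES cells that leave self-renewal in EBs form an outer layer of extraembryonic endoderm, which secretes a basement membrane, around an inner core that makes neural, mesodermal and endodermal derivatives. Day 14 is late in this course, when differentiated cell types of all germ layers are present.

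The targeted gene was read first. Smyd5 (chromosome 6 from 85381983 to 85396429 in mm9, the build of all gene coordinates here) had 6.88 RPKM in shSmyd5 EBs and 13.1 RPKM in shLuc EBs of day 14, from 671 and 1269 reads. Its log2 fold of -0.92 (shSmyd5 over shLuc on RPKM + 0.1, as for all folds here) had a 95% interval of -1.07 to -0.79. That interval is the exact binomial one of the read ratio, and it covers counting error only. It leaves out the added 0.1, so for genes of low level the fold can lie near or beyond its edge. With 1 library a group, no difference given here has a replicate check or a p-value. Smyd5 was lower in shSmyd5 at each stage, and the difference was smallest at day 14. Its log2 fold was -2.69 in ES cells and -3.44 in EBs of 24 h, then -4.71 at day 6 and -1.44 at day 10. Among the relatives of Smyd5, the lysine methyltransferases Smyd2 and Smyd3 differed by less than 1.5-fold (log2 folds 0.24 and 0.03). Smyd1, a muscle methyltransferase, and Smyd4 were under 3 RPKM in both libraries (1.52 and 1.61 RPKM in shSmyd5 EBs, against 2.49 and 1.85 RPKM in shLuc EBs).

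Between the day 14 libraries, 332 genes were at least 2-fold higher in shSmyd5 EBs (3.17% of the 10476) and 426 were at least 2-fold lower (4.07%). The read interval of 324 of the 332 and of 419 of the 426 lay wholly beyond 1.5-fold, against 1563 of all 10476 genes (14.9%). The 2-fold genes were picked on the same reads that give the intervals, so their high shares follow largely from that choice. The lower genes reached further: 79 were at least 4-fold lower and 29 at least 8-fold lower, against 42 at least 4-fold higher and 10 at least 8-fold higher. Many of these genes had low levels in 1 library: 249 of the 426 lower genes were under 3 RPKM in shSmyd5 EBs, while 113 of the 332 higher genes were under 3 RPKM in shLuc EBs. At 1.5-fold, 1163 genes were higher and 1159 lower, 11.1% each way, and this share is the background for the gene lists below. The median log2 fold over all genes was 0.01. The day 14 libraries held 29470835 (shSmyd5) and 28605514 (shLuc) reads in genes, within a range of 3895537 (shLuc ES cells) to 43377815 over the study.

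**Figure D1:**
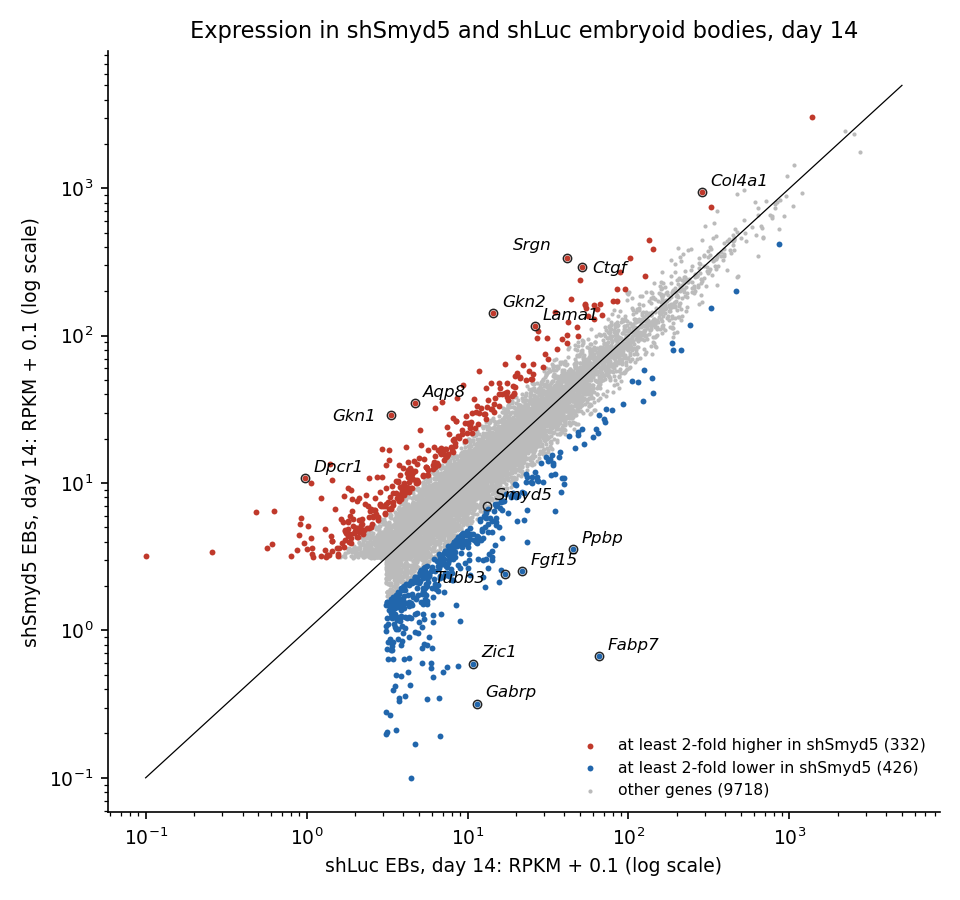
RPKM + 0.1 of 10476 genes in shSmyd5 EBs (vertical axis) and shLuc EBs (horizontal axis) of day 14, both on log scales, with 1 library each. Red points mark the 332 genes 2-fold or more above shLuc and blue points the 426 genes 2-fold or more below it; Fabp7 stands farthest below the line of equal level, and Gkn2, Srgn and Col4a1 lie above it.

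Genes of the developing nervous system were low in shSmyd5 EBs. Fabp7 (chromosome 10 from 57504687 to 57508256), a fatty acid binding protein of radial glia and neural progenitors, had 0.57 RPKM in shSmyd5 EBs and 65.5 RPKM in shLuc EBs, from 17 and 1938 reads. Its log2 fold of -6.61 (-7.63 to -6.16) was the lowest of the 6335 genes with at least 10 RPKM in 1 or both libraries. Along the control course, Fabp7 had 0 RPKM in shLuc ES cells and 0.34 RPKM at 24 h, followed by 2.17 (day 6), 9.05 (day 10) and 65.5 RPKM (day 14), and it stayed under 1 RPKM in each shSmyd5 library. Zic1, a zinc finger factor of the dorsal neural tube, had 0.50 RPKM in shSmyd5 EBs and 10.8 RPKM in shLuc EBs (log2 fold -4.19, -4.83 to -4.08). At day 10 it had 0.25 RPKM in shSmyd5 EBs and 27.5 RPKM in shLuc EBs. The gap in Zic1 was thus already present at day 10, where the control level was higher than at day 14.

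Of a list of 50 neural progenitor genes, 27 reached 3 RPKM in 1 or both libraries, and 25 of these were at least 1.5-fold lower and none higher in shSmyd5 EBs, with a median log2 fold of -2.34. A filter met by the higher library alone favours genes that differ, and over all list members with a read the median was -2.07. All lists here were chosen with earlier results of these data known. This list holds Fabp7, Zic1, Zic2, Fgf15, Rspo3 and Ptn, which are among the lowest folds at 10 RPKM, so its counts partly restate the ranking. The lower genes included the neural transcription factors Sox1 (0.38 RPKM in shSmyd5 EBs, 6.04 RPKM in shLuc EBs, log2 fold -3.68) and Pax6 (0.327 RPKM in shSmyd5 EBs, 4.31 RPKM in shLuc EBs, log2 fold -3.37). The progenitor factor Sox2, shared with pluripotent cells, had 10.7 RPKM in shSmyd5 EBs and 38.3 RPKM in shLuc EBs (log2 fold -1.83). Rspo2 and Rspo3, secreted amplifiers of Wnt signaling, had log2 folds of -4.01 and -2.54, and pleiotrophin (Ptn), a growth factor of neural tissue, -2.44. Fgf15, an FGF ligand of the neural tube and later of the gut, had 2.42 RPKM in shSmyd5 EBs and 21.7 RPKM in shLuc EBs (log2 fold -3.11). The remaining 2 were lower by less than 1.5-fold: the intermediate filament Vim had a log2 fold of -0.33 and the RNA-binding protein Msi1 -0.48.

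Several families shared a direction. Beside Zic1, its relative Zic2 had a log2 fold of -2.34. A further pair of relatives was under 3 RPKM in both libraries: Zic4 had 3 reads in shSmyd5 EBs and 232 reads in shLuc EBs, and Zic5 was at -2.21. The POU factors Pou3f2 and Pou3f3, which act in neural progenitors and newborn neurons, had log2 folds of -3.41 and -3.50. The orphan nuclear receptor Nr2f1, a patterning factor of the cortex, had 3.03 RPKM in shSmyd5 EBs and 14.0 RPKM in shLuc EBs (-2.17), and the zinc finger repressor Zfp503 had 2.91 RPKM in shSmyd5 EBs and 14.1 RPKM in shLuc EBs (-2.24). Both had also been low at day 10, at -2.74 and -2.36.

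Genes of differentiated neurons were low as well. Of 36 neuronal genes listed, 13 reached 3 RPKM, of which 12 were at least 1.5-fold lower and none higher, with a median of -2.14. Tubb3, the neuronal beta-tubulin, had 2.30 RPKM in shSmyd5 EBs and 17.1 RPKM in shLuc EBs (log2 fold -2.84). Stmn2, a microtubule regulator of growing axons, had 2.20 RPKM in shSmyd5 EBs and 12.3 RPKM in shLuc EBs (-2.43). Uchl1, an abundant neuronal deubiquitinase, and Gpm6a, a neuronal membrane glycoprotein, had log2 folds of -2.70 and -2.86, and the growth cone protein Gap43 -1.84. The neurofilament gene Nefl was the exception, at a log2 fold of 0.42. Tubb3, Stmn2 and Uchl1 were not confined to differentiated cells. In shLuc ES cells they had 58.4, 118 and 71.8 RPKM, against 17.1, 12.3 and 12.7 RPKM in shLuc EBs of day 14. Their day 14 folds are thus no measure of neurons alone, while Gpm6a had 0 RPKM in shLuc ES cells. Stmn2 was higher in shSmyd5 in ES cells, at 24 h and at day 6 (0.19, 0.29 and 0.71). Of 18 neural crest genes, 6 reached 3 RPKM and 5 of them were lower, with Tfap2b at -3.51, Twist1 at -2.13 and Tfap2a at -1.40. The median of that list, -1.07, was -0.58 with no filter on RPKM, -0.49 with the trend on GC content and length removed (below) and -0.41 over genes with a mean of 3 RPKM in the 10 libraries.

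**Figure D2:**
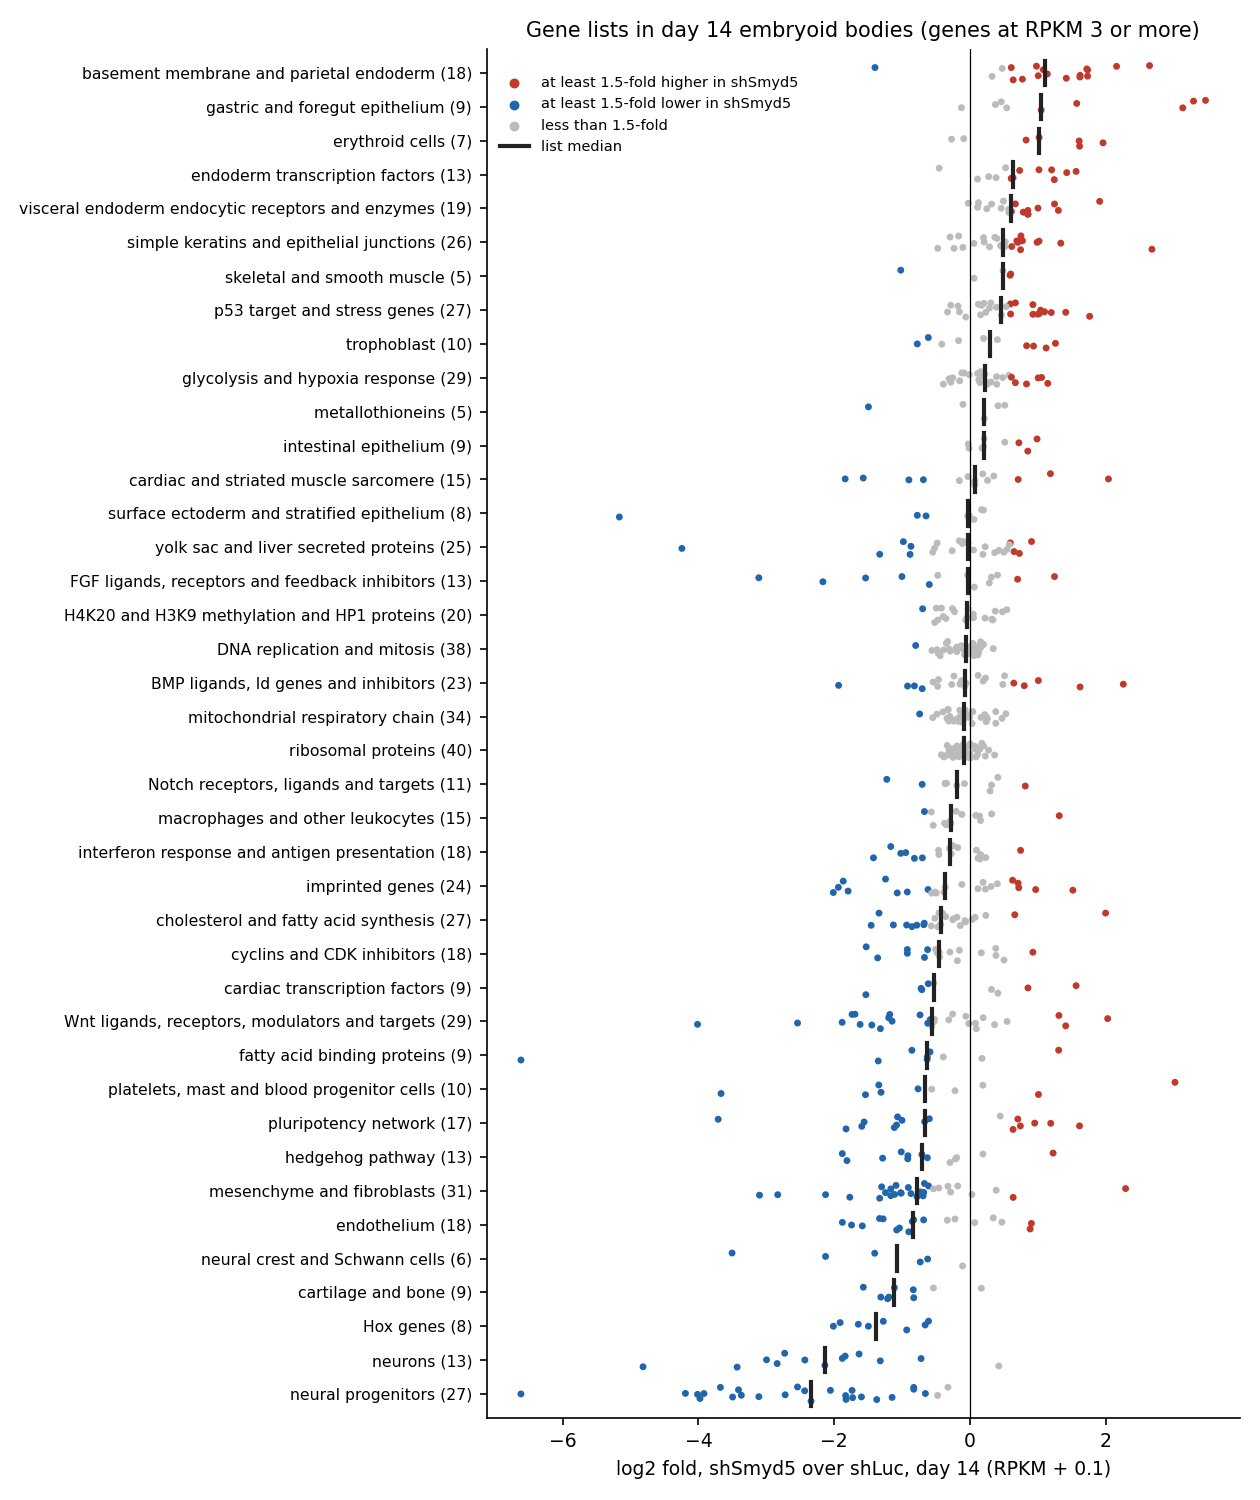
Log2 fold (shSmyd5 over shLuc, RPKM + 0.1) at day 14 of each member with at least 3 RPKM in 1 or both libraries, for the 40 lists with at least 5 such members (number in parentheses); red marks 1.5-fold or more above shLuc, blue 1.5-fold or more below it, and a bar marks the list median. Neural progenitors lie lowest (median -2.34) and basement membrane genes highest (median 1.11), while ribosomal proteins (median -0.09) are spread narrowly around 0.

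Mesenchymal and patterning genes were lower too, by smaller amounts. Of 40 mesenchyme and fibroblast genes, 31 reached 3 RPKM, and 22 were at least 1.5-fold lower against 2 higher (median -0.78). The fibrillar collagen Col1a2 had 422 RPKM in shSmyd5 EBs and 857 RPKM in shLuc EBs (log2 fold -1.02). The small proteoglycan Dcn had 79.4 RPKM in shSmyd5 EBs and 189 RPKM in shLuc EBs (-1.25), and the mesenchymal cadherin Cdh11 36.1 RPKM in shSmyd5 EBs and 123 RPKM in shLuc EBs (-1.77). The limb and craniofacial factor Prrx1 had the lowest fold of the list, -3.10. Fibromodulin (Fmod), a collagen-binding proteoglycan, had a log2 fold of -2.64. Snai1, a repressor of E-cadherin that drives epithelial-mesenchymal transition and is also made by parietal endoderm, went the other way, at 45.9 RPKM in shSmyd5 EBs and 9.31 RPKM in shLuc EBs (2.29). Of 20 cartilage and bone genes, 9 reached 3 RPKM and 7 were lower (median -1.11), with osteopontin (Spp1) at -1.57. That median was -0.65 with no filter on RPKM, -0.87 with the trend on GC content and length removed (below) and -1.21 over genes of at least 10 RPKM. Of 39 Hox genes, which set position along the body axis, 8 reached 3 RPKM and all 8 were at least 1.5-fold lower, between -2.01 (Hoxc10) and -0.61 (Hoxb2). Their median was -1.39, and -1.33 with no filter on RPKM. The direction was not shared at day 10, where 4 Hox genes reached 3 RPKM, with 2 higher and 1 lower by 1.5-fold (median 0.27).

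Matrix genes of the extraembryonic endoderm mostly went the other way. Of 20 genes of basement membrane and parietal endoderm, the cells of the outer yolk sac that lay down Reichert's membrane, 18 reached 3 RPKM, and in shSmyd5 EBs 15 were higher by 1.5-fold or more and 1 was lower (median 1.11). Col4a1, a collagen IV chain, had 946 RPKM in shSmyd5 EBs and 287 RPKM in shLuc EBs (log2 fold 1.72, 1.71 to 1.73), and its partner chain Col4a2 443 RPKM in shSmyd5 EBs and 133 RPKM in shLuc EBs (1.73). These are among the most abundant transcripts of the EBs. The 3 chains of laminin-111, the laminin of embryonic basement membranes, were higher together: Lama1 had 116 RPKM in shSmyd5 EBs and 26.0 RPKM in shLuc EBs (2.16), Lamb1 338 RPKM in shSmyd5 EBs and 102 RPKM in shLuc EBs (1.73), and Lamc1 273 RPKM in shSmyd5 EBs and 88.9 RPKM in shLuc EBs (1.62). Among other laminin chains, Lamb2, Lama5 and Lama4 differed by less than 1.5-fold (0.55, 0.47 and -0.38). In the collagen IV family Col4a5, which joins a different trimer, was lower, with 10.2 RPKM in shSmyd5 EBs and 27.2 RPKM in shLuc EBs (-1.40).

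Enzymes and partners of this matrix were also higher. Nidogen 1 (Nid1), which links laminin to collagen IV, had a log2 fold of 1.42. The collagen prolyl hydroxylases P4ha1 and P4ha2 had 1.00 and 1.08, and the collagen chaperone Serpinh1 0.77. Sparc, a matrix protein secreted in large amounts by parietal endoderm, had 3028 RPKM in shSmyd5 EBs and 1377 RPKM in shLuc EBs (1.14). Thrombomodulin (Thbd), a parietal endoderm surface marker, had 5.67 RPKM in shSmyd5 EBs and 0.825 RPKM in shLuc EBs (2.64). Outside the list, Tinagl1, a basement membrane adaptor, had 238 RPKM in shSmyd5 EBs and 49.7 RPKM in shLuc EBs (2.26). Srgn, the proteoglycan serglycin, had 337 RPKM in shSmyd5 EBs and 41.5 RPKM in shLuc EBs (3.02, 2.94 to 3.10). Srgn is best known from granules of blood cells, and was placed in the list of platelet and mast cell genes, where Ppbp and Pf4 were lower (below). Its level in shSmyd5 EBs had been higher still at day 6 (1502 RPKM, against 24.7 RPKM in shLuc EBs). Ctgf, a matricellular protein and a target of YAP, had 295 RPKM in shSmyd5 EBs and 51.4 RPKM in shLuc EBs (2.52), and Spock1, a testican proteoglycan, 57.9 RPKM in shSmyd5 EBs and 11.7 RPKM in shLuc EBs (2.30).

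The promoter windows of Col4a1 and Col4a2 are shown because the folds of both chains were alike and their starts are close on chromosome 8. RefSeq (GRCm38.p6) places their starts 21 bases apart on opposite strands, and the windows of 250 bases before to 50 bases after each start share 78 bases, set in capitals. Col4a1 lies at chr8:11312777-11313076 (minus strand) and Col4a2 at chr8:11312555-11312854 (plus strand).
Col4a1: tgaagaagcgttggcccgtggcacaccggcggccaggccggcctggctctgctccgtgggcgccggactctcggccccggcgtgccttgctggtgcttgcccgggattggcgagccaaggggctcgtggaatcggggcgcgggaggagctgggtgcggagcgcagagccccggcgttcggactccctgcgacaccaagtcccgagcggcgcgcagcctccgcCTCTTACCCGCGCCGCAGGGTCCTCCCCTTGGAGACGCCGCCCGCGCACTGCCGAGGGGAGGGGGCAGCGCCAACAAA
Col4a2: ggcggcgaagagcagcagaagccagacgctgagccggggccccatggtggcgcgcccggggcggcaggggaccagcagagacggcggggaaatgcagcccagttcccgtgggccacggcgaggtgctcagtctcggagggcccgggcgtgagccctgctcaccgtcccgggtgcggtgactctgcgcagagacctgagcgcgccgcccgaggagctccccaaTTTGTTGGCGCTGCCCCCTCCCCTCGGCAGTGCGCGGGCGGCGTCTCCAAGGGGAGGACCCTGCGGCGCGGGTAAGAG

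Transcription factors of endoderm were higher with the matrix genes. Of 20 listed, 13 reached 3 RPKM, and 8 were at least 1.5-fold higher and none lower (median 0.63, or 0.45 over all members with a read). Gata4, a zinc finger factor of extraembryonic endoderm and heart, had 124 RPKM in shSmyd5 EBs and 41.8 RPKM in shLuc EBs (log2 fold 1.56). Sox7 and Sox17, the SOX factors of primitive endoderm, had 1.42 and 1.20, and the forkhead factors Foxa2 and Foxa3 had 1.24 and 1.01. Gata6, which specifies primitive endoderm, was nearly level, with 55.4 RPKM in shSmyd5 EBs and 51.3 RPKM in shLuc EBs (0.11), and Foxa1 was at -0.46. Of 20 receptors and enzymes of visceral endoderm, the absorptive layer of the yolk sac, 19 reached 3 RPKM, with 10 higher and none lower (median 0.61). Pga5, a pepsinogen, had 64.2 RPKM in shSmyd5 EBs and 17.0 RPKM in shLuc EBs (1.91), and the lysosomal protease Ctsh 209 RPKM in shSmyd5 EBs and 84.7 RPKM in shLuc EBs (1.30). The receptors Cubn, Lrp2 and Amn, which take up proteins together, differed by less than 1.5-fold (0.32, 0.49 and 0.46).

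Secreted proteins of yolk sac and liver did not share a direction. Of 30 listed, 25 reached 3 RPKM, 4 were higher and 5 lower, and the median was -0.03. Afp, the fetal serum protein, had 2332 RPKM in shSmyd5 EBs and 2512 RPKM in shLuc EBs (log2 fold -0.11), and the retinol carrier Rbp4 1440 RPKM in shSmyd5 EBs and 1073 RPKM in shLuc EBs (0.42). Albumin (Alb), a marker of hepatocytes, had 0.25 RPKM in shSmyd5 EBs and 6.53 RPKM in shLuc EBs (-4.24, -5.43 to -4.06). Apolipoprotein E (Apoe) was the highest fold of the list, with 978 RPKM in shSmyd5 EBs and 522 RPKM in shLuc EBs (0.90).

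Genes of stomach lining stood at the top of the ranking. Gkn2 (chromosome 6 from 87323359 to 87329488), a gastrokine secreted by surface mucous cells of the stomach, had 142 RPKM in shSmyd5 EBs and 14.4 RPKM in shLuc EBs, from 4304 and 434 reads, a log2 fold of 3.29 (3.16 to 3.44). Its neighbour Gkn1 (chromosome 6 from 87295647 to 87300917) had 29.1 RPKM in shSmyd5 EBs and 3.23 RPKM in shLuc EBs (3.13, 2.93 to 3.42). Dpcr1, a mucin-like membrane protein, had 10.7 RPKM in shSmyd5 EBs and 0.879 RPKM in shLuc EBs (3.47), the highest fold at 10 RPKM. The third gastrokine gene, Gkn3, had 2 reads in shSmyd5 EBs and 1 read in shLuc EBs. Both expressed gastrokine genes had appeared late: at day 10 Gkn2 had 20.1 RPKM in shSmyd5 EBs and 1.06 RPKM in shLuc EBs, and Gkn1 4.46 RPKM in shSmyd5 EBs and 0.269 RPKM in shLuc EBs, and at day 6 neither passed 1 RPKM in either library. Of 28 stomach and foregut genes listed, 9 reached 3 RPKM, and 5 were higher and none lower (median 1.05). Gkn1, Gkn2 and Dpcr1 are among the 5, so these counts partly restate the ranking. Over all members with a read the median was 0.46, and Tff3, a trefoil peptide of mucous cells, had 34.3 RPKM in shSmyd5 EBs and 24.9 RPKM in shLuc EBs (0.46). The other 19 listed genes stayed under 3 RPKM in both libraries.

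The gastrokine promoters are shown because both neighbours were higher. Their starts lie 22450 bases apart, with Gkn1 at chr6:87350866-87351165 (minus strand) and Gkn2 at chr6:87373115-87373414 (plus strand) in GRCm38.p6. Capitals mark exact matches on either strand to the short motifs searched in all windows. Gkn1 held the GATA motif AGATAA. Gkn2 held the same motif, the NF-Y motif CCAAT, the SP factor motif GGGCGG and the TATA box TATAAA, the last 29 bases before the start. The GATA motif was in 5.53% of the 5900 windows of day 14 genes with a single listed start and in 11.2% of the 32851 windows of the table, so a match is a description and no sign of binding.
Gkn1: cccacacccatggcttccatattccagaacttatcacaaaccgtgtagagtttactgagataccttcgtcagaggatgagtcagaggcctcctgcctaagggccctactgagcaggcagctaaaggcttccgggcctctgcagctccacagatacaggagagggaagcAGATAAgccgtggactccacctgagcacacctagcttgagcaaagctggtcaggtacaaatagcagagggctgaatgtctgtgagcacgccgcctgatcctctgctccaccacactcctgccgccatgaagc
Gkn2: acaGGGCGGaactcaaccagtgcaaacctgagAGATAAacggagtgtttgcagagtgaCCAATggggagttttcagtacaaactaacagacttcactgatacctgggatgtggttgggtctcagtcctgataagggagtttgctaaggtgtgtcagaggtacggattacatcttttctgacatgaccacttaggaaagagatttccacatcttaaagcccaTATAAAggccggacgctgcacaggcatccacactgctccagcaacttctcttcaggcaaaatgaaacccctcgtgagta

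Epithelial genes were higher more often than lower. Of 28 simple keratins and junction genes, 26 reached 3 RPKM, with 11 higher and none lower (median 0.49). The keratin pair Krt8 and Krt18, the first keratins of the embryo, had log2 folds of 0.75 and 0.73, and Krt19 had 169 RPKM in shSmyd5 EBs and 85.2 RPKM in shLuc EBs (0.99). Krt23 (2.68) and the epithelial ETS factor Elf3 (1.34) were the furthest, while E-cadherin (Cdh1) was at -0.24 and Epcam at 0.21. Aqp8, a water channel of secretory epithelia, had 34.7 RPKM in shSmyd5 EBs and 4.59 RPKM in shLuc EBs (2.89). Vsig2, an adhesion protein of the immunoglobulin family, had a log2 fold of 2.86, Lpar3, a receptor for lysophosphatidic acid, 2.55, Rap1gap, which switches off the GTPase Rap1, 2.37, and the pancreatic lipase cofactor Clps 2.35. Wfdc1, a secreted protein with a whey acidic protein domain, was at 2.37, and the predicted gene Gm4980 at 3.27. All 15 genes with the highest folds were also higher in shSmyd5 EBs of day 10, with log2 folds between 1.29 (Clps) and 4.77 (Srgn).

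Blood and vessel genes divided by lineage. Of 25 erythroid genes, 7 reached 3 RPKM and 5 were higher, all of them globins: Hbb-y, the embryonic beta-like globin, had 107 RPKM in shSmyd5 EBs and 27.5 RPKM in shLuc EBs (log2 fold 1.96), Hba-a1 163 RPKM in shSmyd5 EBs and 53.3 RPKM in shLuc EBs (1.61), Hba-x 1.02 and Hbb-bh1 0.82. Hba-a1 and Hba-a2 are near-identical copies listed at 2 places, so their separate values are uncertain. At day 10 the same list was lower, with 12 of 15 at least 1.5-fold lower and none higher, and Hba-a1 at 73.4 RPKM in shSmyd5 EBs and 147 RPKM in shLuc EBs. The erythroid heme enzyme Alas2 was under 3 RPKM in both libraries of day 14, and over all list members with a read the median was 0.11. Of 24 platelet, mast cell and progenitor genes, 10 reached 3 RPKM, 5 were lower and 2 higher. The platelet chemokine Ppbp had 3.45 RPKM in shSmyd5 EBs and 45.1 RPKM in shLuc EBs (-3.67), and its neighbour Pf4 10.0 RPKM in shSmyd5 EBs and 29.4 RPKM in shLuc EBs (-1.54). Kit, the stem cell factor receptor, was higher, with 50.7 RPKM in shSmyd5 EBs and 25.2 RPKM in shLuc EBs (1.01). Of 30 endothelial genes, 18 reached 3 RPKM, with 11 lower and 2 higher (median -0.84), among them the junction proteins Cdh5 (-0.83) and Pecam1 (-0.85) and the VEGF receptor Kdr (-1.04), while the other VEGF receptor Flt1 was at 0.88. The endothelial median was -0.18 over genes of at least 10 RPKM. Macrophage genes were near equal (1 higher and 1 lower of 15, median -0.28).

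Heart genes gave no common direction. Of 18 cardiac transcription factors, 9 reached 3 RPKM, with 4 lower and 2 higher; Hand2 had 20.6 RPKM in shSmyd5 EBs and 59.8 RPKM in shLuc EBs (log2 fold -1.53), and Gata4 was higher (above). Of 30 sarcomere genes, 15 reached 3 RPKM, with 4 lower and 3 higher (median 0.07). The ventricular light chain Myl2 was at -1.84 and cardiac troponin T (Tnnt2) at -0.90, whereas Myl3 had 31.9 RPKM in shSmyd5 EBs and 14.0 RPKM in shLuc EBs (1.18) and the natriuretic peptide Nppb was at 2.04. Gabrp, the pi subunit of the GABA-A receptor, which was listed with surface ectoderm, had 0.218 RPKM in shSmyd5 EBs and 11.3 RPKM in shLuc EBs, from 28 and 1440 reads (-5.16). It had been under 1 RPKM in all other libraries of the study, so a level above that was found in shLuc EBs of day 14 alone.

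Signaling genes had mixed directions. Of 52 Wnt pathway genes, 29 reached 3 RPKM, with 14 lower and 3 higher (median -0.56). Beside the R-spondins, the pathway's own targets Axin2 and Nkd1 had log2 folds of -1.32 and -1.45, the nuclear effector Lef1 -1.62 and the ligand Wnt1 -1.74. The higher ones were Wnt11, a non-canonical ligand of the heart and kidney (7.68 RPKM in shSmyd5 EBs, 1.81 RPKM in shLuc EBs, 2.03), and the secreted inhibitors Sfrp5 (1.41) and Frzb (1.31). Of 17 hedgehog pathway genes, 13 reached 3 RPKM, with 8 lower and 1 higher. Shh, the ligand of neural tube and gut, was at -1.81, its co-receptor Gas1 at -1.88 and the effector Gli3 at -1.29, while Ihh, the ligand made by visceral endoderm, had 12.7 RPKM in shSmyd5 EBs and 5.41 RPKM in shLuc EBs (1.22). The direct target Ptch1 was nearly level (0.19). The hedgehog median, -0.71, was -0.30 over genes of at least 10 RPKM. Of 29 BMP pathway genes, 23 reached 3 RPKM, 5 were higher and 4 lower; Bmper, a BMP-binding endothelial regulator (2.26), and the inhibitors Fst (1.62) and Nog (1.00) were higher, and Msx1, a BMP-induced homeobox gene, lower (-1.94). The target Id1 was at 0.23. FGF and Notch genes were mixed, with medians of -0.04 and -0.20.

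Residual pluripotency genes divided into groups. Of 25 listed, 17 reached 3 RPKM, with 10 lower and 6 higher in shSmyd5 EBs (median log2 fold -0.67). Pou5f1, Nanog and Esrrb, core factors of ES cells, were low in both libraries and lower in shSmyd5 EBs: Pou5f1 had 3.51 RPKM in shSmyd5 EBs and 7.56 RPKM in shLuc EBs (-1.08), Nanog 2.86 RPKM in shSmyd5 EBs and 6.33 RPKM in shLuc EBs (-1.12) and Esrrb was at -1.56. Dppa3, a factor of germ cells and naive ES cells, had 0.469 RPKM in shSmyd5 EBs and 7.34 RPKM in shLuc EBs (-3.71). Other members were higher. Klf4, a factor of ES cells and of gut epithelium, had 47.6 RPKM in shSmyd5 EBs and 15.5 RPKM in shLuc EBs (1.61), Klf5 was at 0.74, Sall4 at 0.63 and the RNA-binding protein Lin28a at 0.95. With only the genes of at least 10 RPKM, which leaves out Pou5f1, Nanog, Esrrb and Dppa3, the list's median was 0.54.

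Genes of stress, hypoxia and lipid synthesis differed by smaller amounts. Of 30 p53 target and stress genes, 27 reached 3 RPKM, with 12 higher and none lower (median 0.46). The cyclin-dependent kinase inhibitor Cdkn1a had 110 RPKM in shSmyd5 EBs and 58.1 RPKM in shLuc EBs (log2 fold 0.92), the immediate early gene Ier3 was at 1.76, the kinase-like Trib3 at 1.41 and the stress factor Atf3 at 1.19. Trp53 itself was at -0.33. Of 30 glycolysis and hypoxia genes, 29 reached 3 RPKM, with 6 higher and none lower; Ndrg1, induced by low oxygen, had 69.6 RPKM in shSmyd5 EBs and 31.4 RPKM in shLuc EBs (1.14), while the glycolytic enzymes Gapdh, Pgk1 and Ldha were at 0.22, 0.14 and 0.13. Of 30 cholesterol and fatty acid synthesis genes, 27 reached 3 RPKM, with 8 lower and 2 higher (median -0.43). Insig1, a brake on sterol synthesis, was higher, at 176 RPKM in shSmyd5 EBs and 44.1 RPKM in shLuc EBs (1.99). The sterol enzymes Sc4mol, Idi1 and Mvd had log2 folds of -1.46, -1.34 and -1.13. Of 30 imprinted genes, 24 reached 3 RPKM, and of these 5 were higher and 8 lower: the growth inhibitor Grb10 had 41.1 RPKM in shSmyd5 EBs and 143 RPKM in shLuc EBs (-1.80), Igf2 1776 RPKM in shSmyd5 EBs and 2729 RPKM in shLuc EBs (-0.62), H19 was at 0.97 and neuronatin (Nnat) at 1.51.

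Housekeeping and chromatin genes were close to equal. None of 40 ribosomal protein genes, 1 of 38 replication and mitosis genes (Rrm2, -0.80), 1 of 34 respiratory chain genes (Cycs, -0.74) and 1 of 20 genes of H4K20 and H3K9 methylation and HP1 proteins (Suv39h2, -0.70) passed 1.5-fold, with list medians from -0.09 to -0.05. The other H4K20 methyltransferases Suv420h1, Suv420h2 and Setd8 were at -0.03, 0.54 and 0.32. Of 18 cyclins and CDK inhibitors at 3 RPKM, 6 were lower and 1 higher, with cyclin D1 (Ccnd1) at -1.36 and the inhibitors Cdkn2c at -1.53 and Cdkn1c at -0.92.

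In the family of Fabp7, the lipid binding proteins divided. Of 15 genes, 9 reached 3 RPKM, with 6 lower and 1 higher. Fabp3, the heart type, had 163 RPKM in shSmyd5 EBs and 66.1 RPKM in shLuc EBs (log2 fold 1.30), and it had been higher in shSmyd5 at each of the earlier stages. Fabp4, of adipocytes and endothelium, had 3.75 RPKM in shSmyd5 EBs and 9.73 RPKM in shLuc EBs (-1.35), and the cellular retinoic acid binding proteins Crabp1 and Crabp2 were at -0.86 and -0.63. Fabp9, Fabp12, Pmp2 and Fabp6 had no reads in either day 14 library. The window of Fabp7, the gene with the lowest fold at 10 RPKM, lies at chr10:57784673-57784972 (plus strand, GRCm38.p6) and is shown with matches to the NF-Y motif and to the ZIC motif CAGCAGG, both on the minus strand, in capitals. The ZIC motif was in 9.85% and the NF-Y motif in 40.3% of the 5900 windows of day 14 genes, so here too a match is no sign of binding.
Fabp7: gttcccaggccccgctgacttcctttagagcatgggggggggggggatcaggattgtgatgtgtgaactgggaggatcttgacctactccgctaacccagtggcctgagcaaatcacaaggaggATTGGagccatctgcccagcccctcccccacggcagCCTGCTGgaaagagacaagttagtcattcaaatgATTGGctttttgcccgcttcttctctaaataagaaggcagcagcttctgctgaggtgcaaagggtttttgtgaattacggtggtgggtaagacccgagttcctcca

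**Figure D3:**
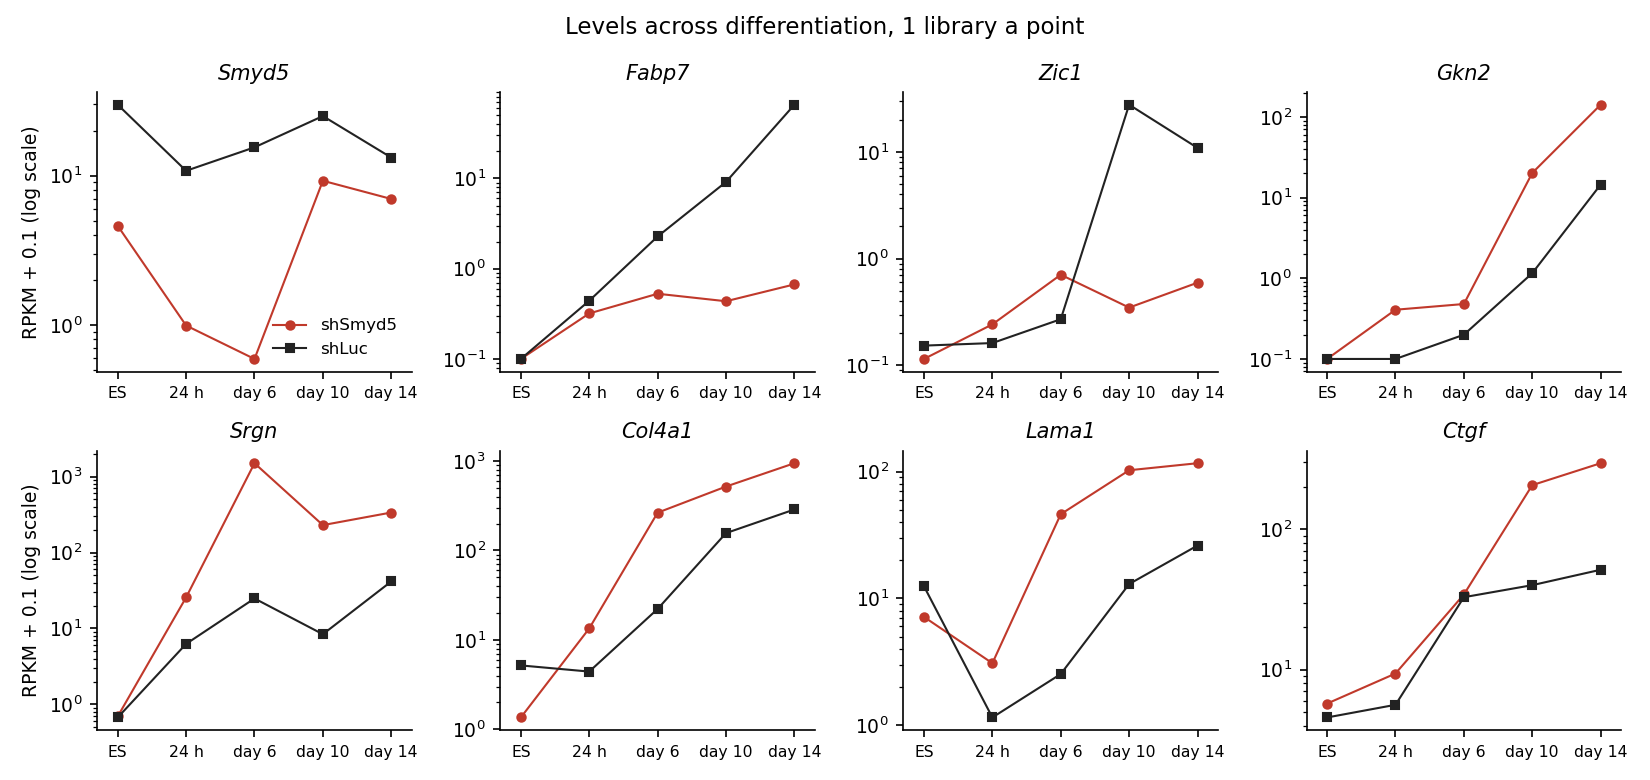
RPKM + 0.1 (log scale) of 8 genes in ES cells and in EBs of the 4 times, with 1 library a point; shSmyd5 in red circles and shLuc in black squares. Fabp7 and Zic1 reach 65.5 and 27.5 RPKM in shLuc and stay under 1 RPKM in shSmyd5, while Gkn2 and Ctgf separate by day 10 and Srgn, Col4a1 and Lama1 by day 6 or before.

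The day 14 genes were followed in the other pairs of libraries, which share no library with the day 14 pair. Those pairs are other stages of shSmyd5 and shLuc cells and no replicates. A lasting difference between these cells cannot be told apart there from the knockdown. Chromosome 8, which was lower in shSmyd5 EBs of each time (below), holds 52 of the 426 lower genes. Of the 332 genes higher at day 14, 301 had at least 3 RPKM at day 10, and 204 of these (67.8%) were at least 1.5-fold higher there, against 10.3% of all day 14 genes. Of the 426 lower genes, 295 were at 3 RPKM at day 10 and 242 (82.0%) were at least 1.5-fold lower, against 13.7% of all. At day 6 the shares were 65.5% of 206 (15.2% of all) for the higher genes and 71.6% of 201 (36.9% of all) for the lower ones. At 24 h they were 70.3% of 118 (26.6% of all) and 34.0% of 144 (11.6% of all). In ES cells the higher genes went the other way: 14 of 170 (8.24%, against 18.2% of all) were at least 1.5-fold higher and 67 at least 1.5-fold lower. The lower genes stood close to the background there, with 23.2% of 125 at least 1.5-fold lower (22.02% of all) and 25.6% at least 1.5-fold higher (18.2% of all). At 2-fold, the higher genes of day 14 and day 10 shared 154 (46.4% of the day 14 genes and 46.2% of the day 10 genes), and the lower ones 164 (38.5% and 23.8%). Of all day 14 genes at 3 RPKM at day 10, 3.18% were 2-fold higher and 4.61% 2-fold lower there.

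**Figure D4:**
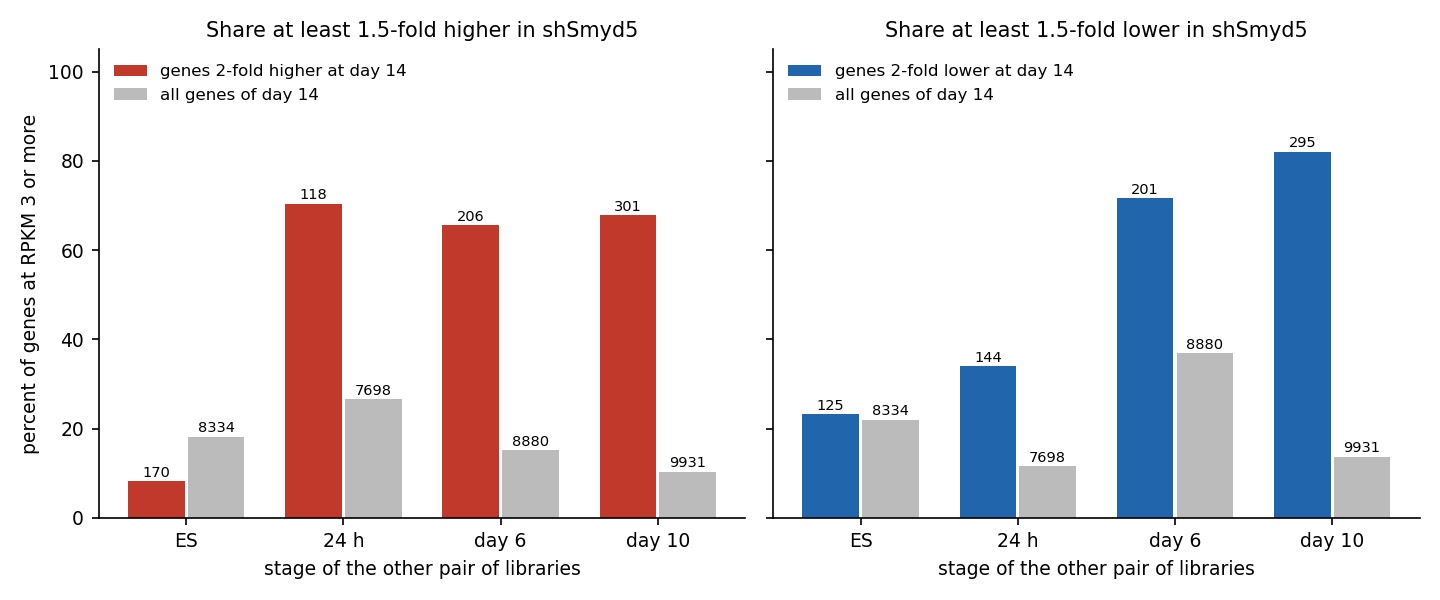
Percent of genes at least 1.5-fold higher (left) or lower (right) in shSmyd5 at 4 other stages, for genes at least 2-fold higher (red) or lower (blue) at day 14 and for all day 14 genes (grey); the number over each bar counts the genes with at least 3 RPKM at that stage. At day 10 the shares were 67.8% and 82.0%, against 10.3% and 13.7% of all genes, and in ES cells 8.24% and 23.2%, against 18.2% and 22.02% of all genes.

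Set on the course of the control, 2-fold genes were more frequent among genes whose level differed between control EBs and ES cells. Of 1734 genes at least 4-fold higher in shLuc EBs of day 10 than in shLuc ES cells, 272 (15.7%) were at least 2-fold lower and 109 (6.29%) at least 2-fold higher at day 14 in shSmyd5 EBs, against 1.60% and 2.34% of the 8549 genes within 4-fold. Of the 193 genes at least 4-fold lower in shLuc EBs of day 10 than in shLuc ES cells, 8.81% were lower and 11.9% higher. Both shares thus exceeded those of the genes within 4-fold in either group, as counts with no test. The groups were set on shLuc levels, and shLuc cells are also the denominator of the day 14 fold. The direction of the shares is therefore not independent of the grouping. Over the 10476 genes, the shSmyd5 library of day 14 had a rank correlation of 0.93 with the shLuc library of day 14 and of 0.95 with the shSmyd5 library of day 10; the shLuc library of day 14 had 0.89 with shSmyd5 of day 10 and 0.86 with shLuc of day 10. Those values describe libraries over shared genes and are no test.

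Promoters of low CpG ratio and with a TATA box were more frequent among the genes of both directions, as shares with no test, while the median GC content of the windows was close (62.0% for higher and 59.7% for lower genes, against 61.7% for all). Of the 332 higher and 426 lower genes, 162 and 205 had a single listed start in RefSeq. The windows of 300 bases had a CpG ratio (observed over expected) under 0.4 in 22.8% of the higher and 27.3% of the lower genes, against 8.39% of all 5900. TATAAA was in 10.5% of the higher and 13.2% of the lower windows, against 6.73% of all. The ZIC motif CAGCAGG was in 9.88% of the higher and 12.7% of the lower windows, against 9.85%. The GATA motif was close to level, at 5.56% and 5.85%, against 5.53%. Genes of low CpG and TATA promoters are, as background, often genes restricted to single cell types.

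Folds also followed the GC content of the transcript. Across 10109 genes of known sequence, taken as a description because genes of 1 library pair share that pair, fold and GC content had a rank correlation of 0.32. In 10 groups of genes by GC content the median log2 fold was -0.23 in the lowest (median GC 40.3%) and 0.24 in the highest (59.7%). The median GC content was 54.0% for the 2-fold higher genes, 47.7% for the lower genes and 50.1% for all. With the trend on GC content and length removed, 285 genes were higher and 384 lower, of which 249 and 334 were among the genes above. Its part in the gene groups was not tested further, and the list medians stayed on the same side of 0 for neural progenitors (-2.22) and basement membrane (1.07).

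Chromosome 8 stood apart from all other chromosomes. The median log2 fold of its 580 genes was -0.37, against 0.04 for the 9279 genes of the other autosomes, a difference of -0.42, where the other autosomes lay between -0.12 (chromosome 13) and 0.15 relative to the rest. On chromosome 8, 83.8% of genes were below 0, against 45.9% elsewhere, and 52 were at least 2-fold lower and 3 at least 2-fold higher. The 3 higher genes were Col4a1, Col4a2 and Wfdc1. The shift ran along the whole chromosome, with medians of -0.62 to -0.27 in windows of 20 Mb. With the GC and length trend removed the difference was -0.09 in ES cells (-0.26 before), -0.40 in EBs of both 24 h and day 6, -0.39 in those of day 10 and -0.48 in those of day 14. Measured in each library against the mean of the 10 libraries with that trend removed, genes of chromosome 8 stood 0.23 to 0.26 above the other autosomes in shLuc EBs of all 4 times, with shLuc ES cells at -0.10 and the shSmyd5 libraries of all 5 stages at -0.24 to -0.13. Without the correction the shSmyd5 libraries were at -0.24 to -0.14, the shLuc EBs at 0.09 to 0.34 and the shLuc ES cells at 0.13, so the place of the shLuc ES cells turned on the correction. Mouse ES cells in culture are known to gain whole chromosomes, chromosome 8 among them; DNA copy number was not measured here, and its part in the folds was not tested. Lower genes named above that lie on chromosome 8 are Tubb3, Gpm6a, Hand2, Cdh11, Cdh5, Nkd1, Sc4mol and Mvd. Leaving the chromosome out gave 329 higher and 374 lower genes, and the neural progenitor and basement membrane lists kept the direction of their medians. The median of the cardiac transcription factors was -0.11 without chromosome 8, against -0.53 with it. That of the endothelial genes was -0.77 without chromosome 8, against -0.84 with it, and -0.59 with chromosome 8 centred on the other autosomes.

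**Figure D5:**
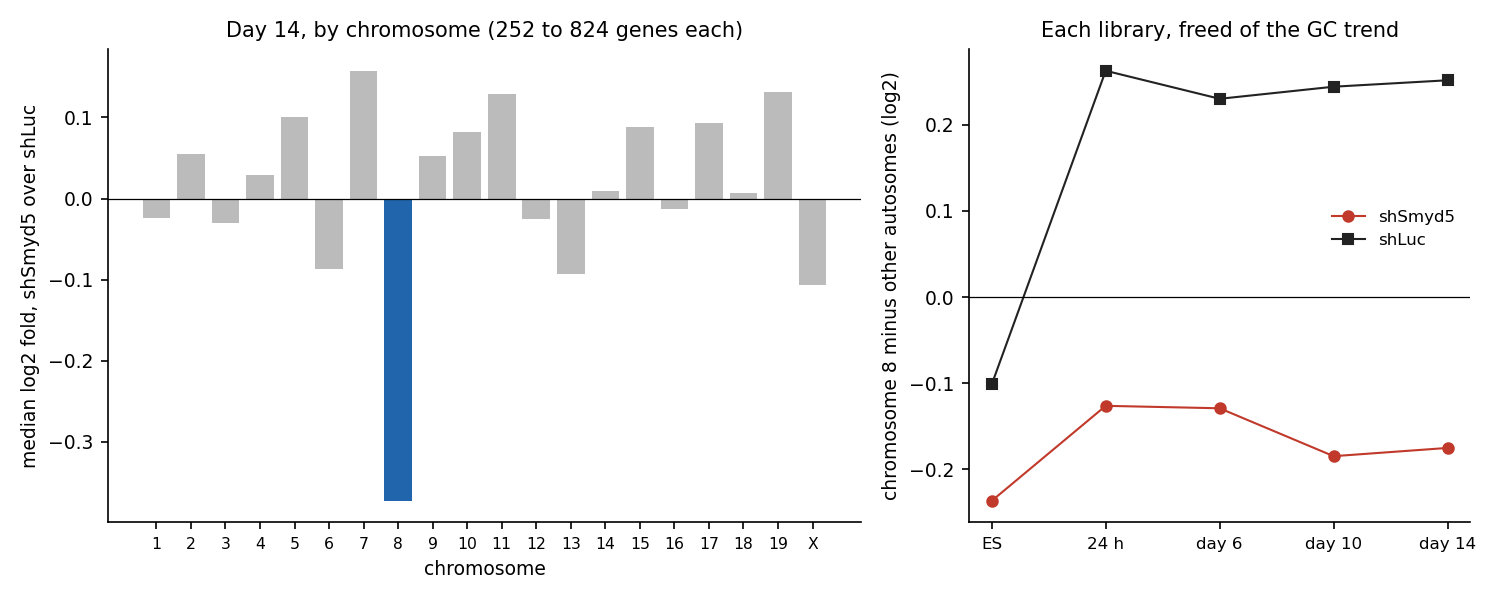
Left, median log2 fold (shSmyd5 over shLuc, day 14) of the genes of each chromosome, with chromosome 8 in blue at -0.37 over 580 genes. Right, median level of chromosome 8 genes minus that of the other autosomes in each library (log2, against the mean over 10 libraries, with the GC and length trend taken out), red circles for shSmyd5 and black squares for shLuc; the 4 shLuc EB libraries lie between 0.23 and 0.26 and all shSmyd5 libraries below 0.

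Some neighbours on a chromosome shared a direction. Of 10212 pairs of adjacent day 14 genes, 28 pairs were both at least 2-fold higher, 39 both at least 2-fold lower and 19 opposite, with no test. Singly, 3.17% of day 14 genes were 2-fold higher and 4.07% lower, and counts for genes in random order were not computed. Adjacent means next to each other among day 14 genes only: the left ends of Foxa2 and Thbd lie 361594 bases apart. Of the 39 lower pairs, 9 lie on chromosome 8, where most genes were lower. Beside Gkn1 and Gkn2, Col4a1 and Col4a2, and Ppbp and Pf4, the pairs included Foxa2 and Thbd (log2 folds 1.24 and 2.64), the run Hcrtr1, Tinagl1, Serinc2 and Fabp3 on chromosome 4 (2.34, 2.26, 1.17 and 1.30), and Dppa3 and Nanog on chromosome 6 (-3.71 and -1.12). The lncRNA Rmst, a partner of SOX2 in neural cells, and the hairpin gene Mir135a-2 beside it were low together. Rmst had 0.105 RPKM in shSmyd5 EBs and 3.04 RPKM in shLuc EBs (-3.94), and Mir135a-2 had 0 reads in shSmyd5 EBs and 17 reads in shLuc EBs. One other gene of the set had no reads in 1 library, Mir3072, with 10 reads in shSmyd5 EBs and 0 reads in shLuc EBs. Without strand information, reads of overlapping transcripts cannot be told apart.

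At the edge of the set, Ppp6r2, Cyp1b1 and Abcc1 were the last genes inside the limit of 3 RPKM (3.00 to 3.01 RPKM in the higher library) and Pfkfb2, Fam109a and Tomm40l the first outside it (all 3.00 RPKM after rounding). Precision depended on level: the 1559 genes at 3 to 5 RPKM had a median interval width of 0.42 on the log2 scale, and the 548 genes at 100 RPKM or more 0.08. The share past 2-fold was 12.4% at 3 to 5 RPKM, 9.02% at 5 to 10, 5.07% at 10 to 30, 4.72% at 30 to 100 and 8.21% at 100 RPKM or more.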

How the data were processed

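Polyadenylated RNA of R1 ES cells and EBs was made into double-stranded cDNA and sequenced from one end, and per the labels and the study's methods the authors aligned reads to mm9. CASAVA and Bowtie2 are named, with versions not given in the sources used here. The deposited tables give read counts per RefSeq transcript, with no strand information, and RPKM values that the authors computed from them. Each symbol was represented by its most read transcript in the study, and the set was limited to symbols that reached 3 RPKM in the shSmyd5 or the shLuc library of day 14. The log2 fold used RPKM + 0.1, and exact (Clopper-Pearson) 95% intervals were those of the read ratio, without the added 0.1. Each group is 1 library, so the spread between replicates could not be measured, the results given rest on no test between conditions, and leaving out a replicate was not possible. Named genes were the 15 highest and 15 lowest folds at 10 RPKM, Smyd5, and examples from the gene lists; the members and lists were chosen with earlier results of these data known. Gene places and GC content came from GENCODE vM1 (NCBIM37, mm9), promoter windows from RefSeq (GRCm38.p6). Work was done in Python 3.11.15 with matplotlib 3.10.9, scipy 1.17.1, numpy 2.4.6, scikit-learn 1.9.0 and pandas 2.3.3, and alternatives in R 4.3.3 with edgeR 4.0.16 and DESeq2 1.42.0. The steps were tested on simulated data, whose counts held counting error only and no spread between cultures. Alternatives were the pseudocount, the filter, the scaling, the transcript choice, removal of the GC and length trend, an edgeR exact test with an assumed spread and, chosen after seeing the data, the handling of chromosome 8. Results for a few genes are not reported here.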

Additional observations from a re-analysis of the deposited data

Results flagged for a closer look

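Several genes named or listed above passed 2-fold at day 14 and passed 2-fold in the opposite direction at another stage. The difference between stages was not tested, since each stage is 1 library a group. In ES cells, shSmyd5 over shLuc gave log2 folds of -1.93 for Col4a1, -1.66 for Phlda3, -1.06 for Gadd45b and -1.02 for Ap1m2, all higher at day 14, and 1.36 for Dppa3, which was lower at day 14.

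At 24 h, Lef1 had 26.5 RPKM in shSmyd5 EBs and 1.14 RPKM in shLuc EBs (log2 fold 4.42), whereas it was lower at day 14. The Wnt genes Axin2 (1.33) and Sfrp2 (1.06), the neuronal genes Crmp1 (1.55), Ina (1.21) and Uchl1 (1.02), and Utf1 (1.85) were likewise higher at 24 h and lower at day 14. Fbxo15 was at -1.72 at 24 h and -1.33 at day 6, and higher at day 14. At day 6, Elf3 was at -1.39, Plagl1 at 1.62 and Thbs1 at 1.12, each opposite to day 14. At day 10, the near-identical globin genes Hba-a1 and Hba-a2 were at -1.002 and -1.001, while at day 14 both were at 1.61.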

How the results depend on the processing

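Of the genes 2-fold apart, 43.8% were higher in shSmyd5 EBs with the filter of 3 RPKM, against 58.1% at 10 RPKM (193 higher, 139 lower), 35.9% at 1 RPKM (445 and 796), 49.0% with a mean of 3 RPKM over the 10 libraries (255 and 265) and 34.4% with no filter (783 and 1494). The pluripotency median was -0.67, and 0.54 at 10 RPKM, which leaves out low genes. Smyd5 was at -1.10 with the GC and length trend removed. With the biological variation set by hand to a coefficient of 0.2, edgeR's exact test called 45 genes higher and 95 lower at an adjusted p of 0.001, and with 0.4 it called 0 higher and 3 lower; the spread was assumed, not measured. Pseudocounts of 1 and 0.01 gave 244 and 346 higher and 300 and 441 lower genes, and TMM scaling 325 and 431. Across the alternatives, Smyd5 and the genes with the highest and lowest folds (31 in all) kept their sign in 217 of 217 comparisons. Apart from Smyd5, these genes were picked as the most extreme folds at 10 RPKM of the same library pair. Each alternative was computed from that pair again, so a change of sign was hardly possible and the count does not measure stability. Of 201 comparisons of the 17 list medians past 1.5-fold, 200 kept their sign and 182 stayed past 1.5-fold. These lists were likewise taken for their medians in that pair, and the alternatives used it again, so their counts do not measure stability either. No paired analysis was possible because day 14 holds 1 library of each group; a fit over the 10 libraries with stage as a block, which would average over stages, was not run. Also, the spread between cultures limits each value in a way that the reads cannot show.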
